A study of Homo sapiens with 4 samples.

Results

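Untreated cells of CAL27, a line from a human tongue squamous carcinoma, were compared with untreated cells of the line labelled SCC15, which is also catalogued as a tongue squamous carcinoma line. The comparison uses 2 of the 4 libraries of the study, chosen by their labels: CAL27 with DMSO and SCC15 with DMSO, 1 library each. The other pair came from the same lines exposed to 10 µM decitabine (5-aza-2'-deoxycytidine), a cytidine analogue that inhibits DNA methylation, for 48 h. That pair is used here to see whether a line difference appears again. It also enters a fit of line and treatment to all 4 libraries and the scaling of the counts. Polyadenylated RNA was sequenced from cells of both lines grown in the same serum-containing medium, and the labels name no separate cultures beyond these 4 and no batches. Of 51103 genes in the deposited table, 14813 had at least 1 CPM (a read count scaled to library size) in either DMSO library. Because each line has 1 DMSO library, the DMSO ratios have no replicate error and no test, and an interval printed here covers counting error only.

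Stratified squamous epithelium, from which oral carcinomas arise, is held together by desmosomes and E-cadherin junctions. Its basal cells express the keratin pair KRT5 and KRT14 and the transcription factor TP63, and they are anchored to laminin-332 by hemidesmosomes. Simple epithelia use KRT8 and KRT18 instead. Epithelial cells that lose this programme, by epithelial to mesenchymal transition (EMT), lower CDH1 and raise vimentin and the repressor ZEB1.

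The library labelled SCC15 did not carry the squamous transcripts that its label implies. Of 13 squamous markers, 12 reached 1 CPM in CAL27 and 2 did so in the SCC15-labelled library, and their summed levels were 1435 and 35.4 CPM. Counts of 0 were found for none of the 13 in CAL27 and for 9 in the SCC15-labelled library, where KRT5, KRT17, KRT6A, TP63, DSG3, DSC3 and TRIM29 were among the genes with no read. The 2 markers that it did express were PITX1, a homeobox factor of the oral region, with 1517 reads in CAL27 and 499 in the SCC15-labelled library, and PKP1, a desmosomal plaque protein, with 294 and 15. CAL27 itself had 1 read of KRT14. Markers of other cell types did not fill the gap in any simple way. Of 12 nerve and neuroendocrine markers, 2 reached 1 CPM in CAL27 and 8 in the SCC15-labelled library (summed 8.19 and 662 CPM), and of 12 mesenchymal markers 7 and 6 did so (summed 97.3 and 2592 CPM, the second nearly all VIM). Blood markers summed to 1.31 CPM in CAL27 and 1.62 in the SCC15-labelled library, intestinal markers to 0.275 and 4.59, liver markers to 52.5 and 0, endothelial markers to 47.6 and 2.83, and melanocyte markers to 13.2 and 7.28. The liver and endothelial sums of CAL27 were nearly all SERPINA1 (759 reads against 0) and CDH5 (668 against 0). Prostate markers summed to 53.5 CPM in CAL27 and 7.75 in the SCC15-labelled library, and kidney and Mullerian markers to 21.6 and 4.79. In the same order, lung sums were 3.86 and 0.0674 CPM and breast and urothelium sums 7.37 and 16.2. Muscle and bone sums were 14.7 and 44.5 CPM. Of 7 pluripotent and germ cell markers, 1 reached 1 CPM in CAL27 and 2 in the SCC15-labelled library. Of 12 markers of epithelium in general, 11 and 4 did so (summed 2823 and 1498 CPM). The sample is therefore called by its label only, and no cell type is given to it. In such bulk samples, fewer cells of a type and less RNA per cell cannot be told apart.

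**Figure D1:**
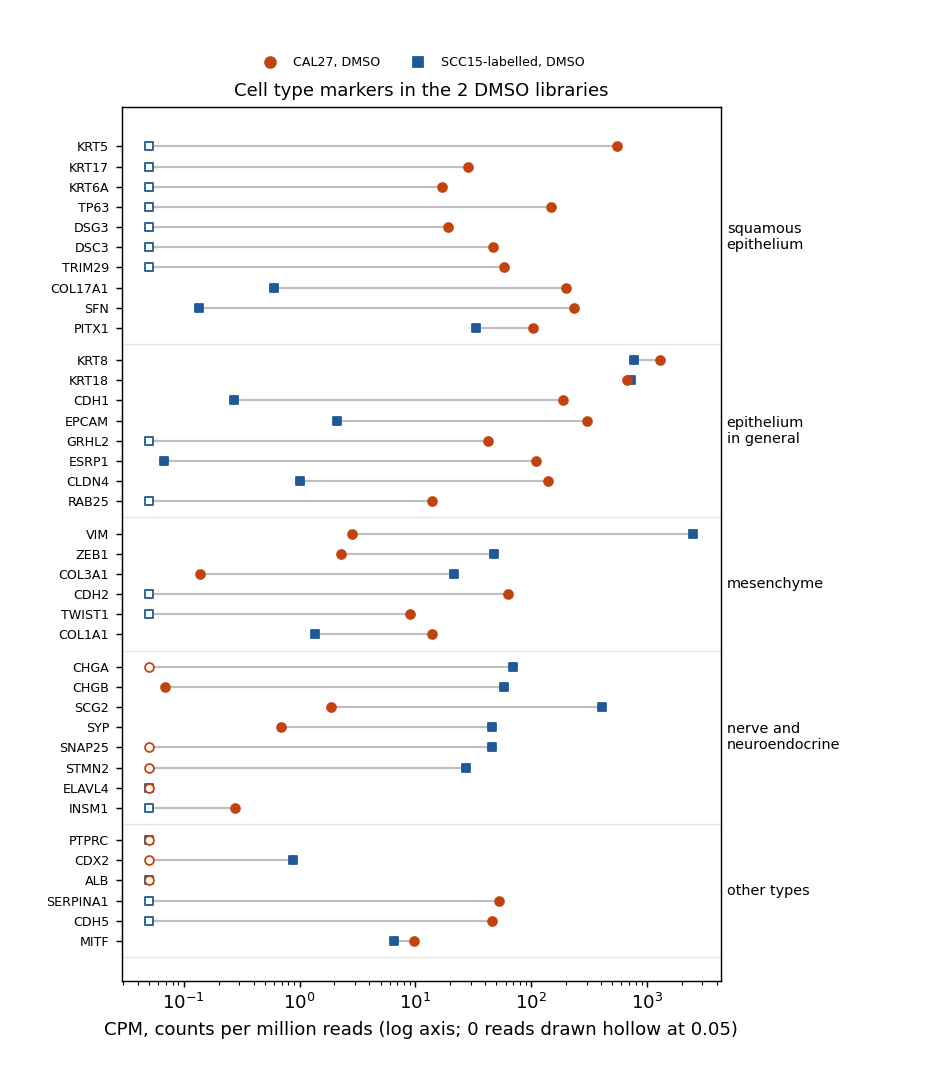
CPM on a log axis of cell type markers in CAL27 with DMSO (circles) and in the SCC15-labelled line with DMSO (squares), 1 library each, hollow where a library had 0 reads. KRT5, TP63 and GRHL2 have reads in CAL27 alone, KRT8 and KRT18 lie close together, and VIM and the granule genes CHGA and SCG2 are high in the SCC15-labelled library.

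The libraries were of similar depth, with 14524461 counted reads for CAL27 and 14830807 for the SCC15-labelled line with DMSO, and 14714809 and 17583706 with decitabine. In the DMSO pair, 3223 of the 14813 measured genes (21.8%) were at least 2-fold higher in CAL27 and 3262 (22.0%) at least 2-fold lower. These 2 shares are the background against which every list below is read. The lists were chosen with earlier results of these data known. A list count above these shares is therefore a description and not an independent result. The median log2 ratio over all measured genes was -0.06 with TMM scaling and 0.09 with scaling to total counts, so ratios near the 2-fold limit move by that much with the scaling. Of the higher genes, 2468 (76.6%) were also at least 2-fold higher in CAL27 in the decitabine pair, where 23.0% of genes were, and 14 were at least 2-fold the other way. Of the lower genes, 2211 (67.8%) were also lower there, where 20.7% of genes were, and 46 were the other way. A fit of line and treatment to all 4 libraries (edgeR quasi-likelihood F test, Benjamini-Hochberg adjusted p of 0.05) called 3496 of 15427 genes higher in CAL27 (22.7%) and 3329 lower (21.6%). It rests on 1 residual degree of freedom and speaks of these cultures, not of the lines in general. Among genes of at least 10 CPM in CAL27, 155 of 9255 had no read in the SCC15-labelled library, and among those of at least 10 CPM in the SCC15-labelled library, 96 of 8989 had no read in CAL27.

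**Figure D2:**
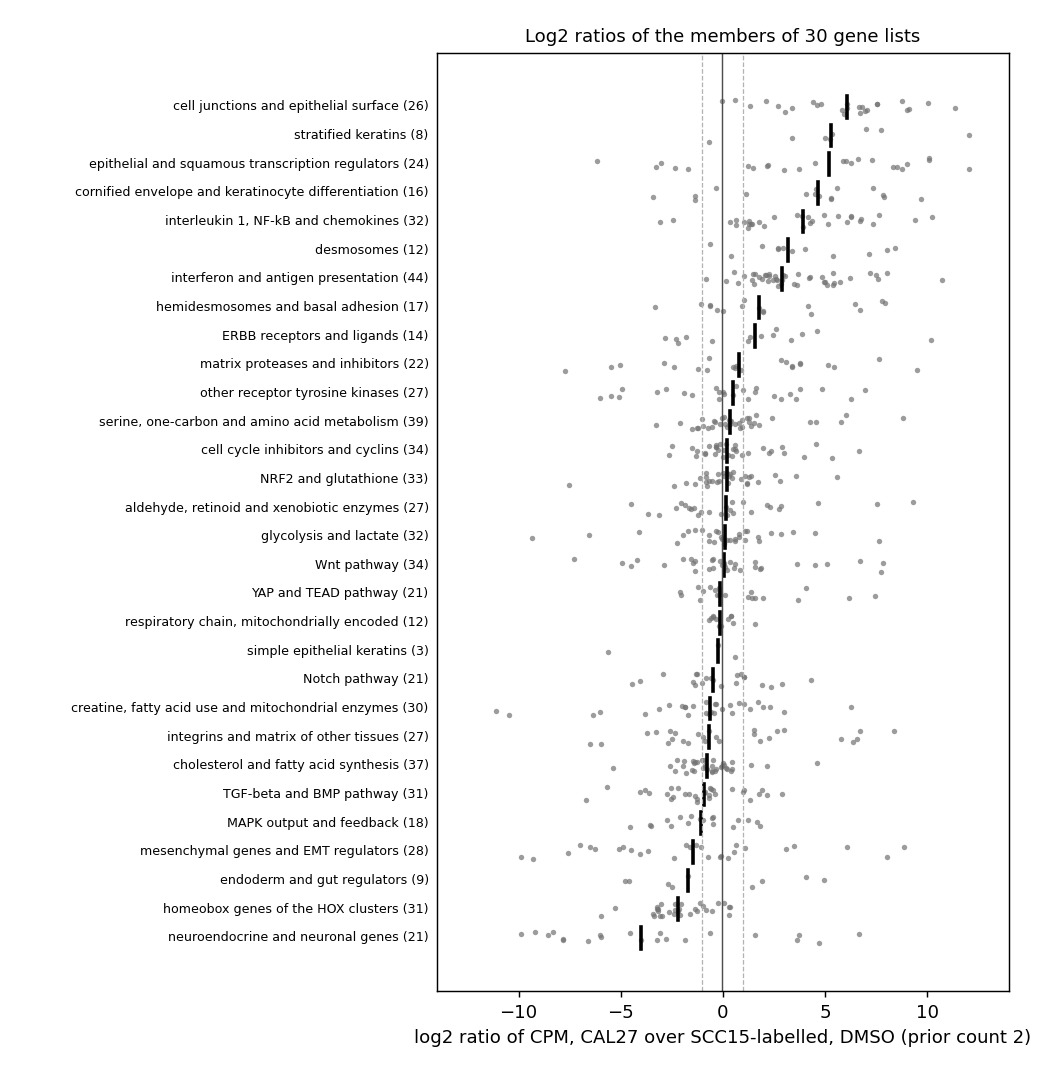
Log2 ratio of CPM, CAL27 over SCC15-labelled, DMSO, prior count 2, for the measured members of 30 gene lists (points, number of members in brackets, vertical jitter only) with each list's median (bar). Dashed lines mark 2-fold and the thin line the median of all measured genes, -0.06; list medians run from 6.09 for cell junctions to -3.98 for neuroendocrine and neuronal genes.

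Keratins separated the lines by class. Of 8 measured keratins of stratified epithelium, 7 were higher in CAL27 and none lower, with a median log2 ratio of 5.30 (4.85 in the decitabine pair). KRT5, the type II keratin of basal cells (chr12:52514575-52520687, GRCh38), had 8054 reads in CAL27 and 0 in the SCC15-labelled library, at least 2470-fold higher, and 8359 and 1 with decitabine. KRT17, a keratin of activated and tumour keratinocytes, had 410 reads against 0 (at least 126-fold). KRT6A, another keratin of activated keratinocytes, had 248 against 0 (at least 76.1-fold), although reads can be split among the near-identical KRT6 genes. The SCC15-labelled library also had reads of KRT80, with 7282 in CAL27 against 636 (log2 ratio 3.39), and of KRT10, a keratin of differentiating layers, with 172 in CAL27 against 253 (-0.67, under 2-fold). The keratins of simple epithelium were shared. KRT8 stood at 189 FPKM in CAL27 and 113 FPKM in the SCC15-labelled library (log2 ratio 0.60), and KRT18 at 210 and 223 FPKM (log2 ratio -0.24). Neither passed the edgeR line fit (adjusted p 0.964 and 0.0641), but that fit joins the DMSO and decitabine pairs. With decitabine the ratio of KRT8 was -0.60, opposite to its DMSO ratio, and that of KRT18 was -1.17. These p-values therefore do not speak of the DMSO pair alone. KRT7, a simple epithelial keratin, ran the other way, with 79 reads in CAL27 against 3646 (log2 ratio -5.61). KRT19 was nearly absent from both, with 9 and 2 reads, and KRT20 had none.

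Transcription regulators of epithelial and squamous identity split into extremes: all 24 measured members differed by at least 2-fold, 19 higher and 5 lower, with a median of 5.20 (4.85 with decitabine). The line fit called the same numbers, 19 and 5. TP63, the master regulator of stratified epithelium (chr3:189631416-189897279, GRCh38), had 2133 reads in CAL27 and 0 in the SCC15-labelled library (at least 654-fold), and with decitabine 2163 and 24. EHF, an ETS factor of epithelia, had 8121 against 0 (at least 2490-fold). GRHL2, an activator of junction genes, had 612 against 0 (at least 188-fold). These 3 genes were well sampled in CAL27 and unread in the other library. ESRP1, a splicing factor that makes epithelial isoforms, had 1581 reads against 1, a log2 ratio of 10.51 (95% counting interval 8.03 to 15.81). SOX15 had 1131 against 14 (log2 ratio 6.05). The 5 lower members included KLF4, with 272 reads in CAL27 against 1293 (log2 ratio -2.36), and TFAP2C with 443 against 1341 (-1.71). The SCC15-labelled library thus kept some regulators with epithelial roles while it lacked reads of TP63, EHF and GRHL2.

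Junction genes showed the highest list median. Of 26 measured members of the cell junction and epithelial surface list, 24 were higher in CAL27 and none lower, with a median log2 ratio of 6.09 (5.59 with decitabine, where 26 of 27 were higher). CDH1, or E-cadherin (chr16:68737225-68835548, GRCh38), had 2727 reads in CAL27 and 4 in the SCC15-labelled library (log2 ratio 8.76), and 3911 and 1 with decitabine. CDH3, or P-cadherin, had 2055 against 0 (at least 630-fold), and EPCAM, an epithelial adhesion molecule, had 4368 against 31 (log2 ratio 6.94). The membrane serine proteases ST14 (1657 against 1, log2 ratio 10.57, counting interval 8.09 to 15.88) and PRSS8 (1007 against 0, at least 309-fold) followed the same direction. The tight junction scaffold TJP1 did not, with 2217 reads in CAL27 against 2073 (log2 ratio -0.02, adjusted p 0.769 in the line fit). CLDN1 was higher in CAL27 but present in both, with 6428 against 1356 reads (log2 ratio 2.12).

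Desmosomal genes were higher in 10 of 12 measured members and lower in none, with a median of 3.17 (2.96 with decitabine). DSP, or desmoplakin, which ties keratin to the desmosome, had 4437 reads in CAL27 against 14 (log2 ratio 8.02). JUP, or plakoglobin, had 3817 against 81 (5.41). The desmosomal cadherins DSG3 and DSC3 had 279 and 672 reads in CAL27 and 0 in the SCC15-labelled library. PERP, a membrane protein of desmosomes, was the more abundant in the SCC15-labelled library by level, at 88.7 FPKM in CAL27 and 124 FPKM there (log2 ratio -0.64, under 2-fold). Hemidesmosome and basal adhesion genes were higher in 10 and lower in 2 of 17. All of the laminin-332 chains shown had large ratios: LAMB3 had 15655 reads in CAL27 against 134 (log2 ratio 6.73) and LAMA3 had 2541 against 25 (6.45). COL17A1, a transmembrane collagen of the hemidesmosome, had 2919 against 9 (7.96). ITGB4 had 3740 against 171 (4.32), but with decitabine 4745 against 1512, a ratio of 1.71. COL7A1, which forms the anchoring fibrils of skin, was the reverse, with 401 reads in CAL27 against 3734 (-3.33).

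Genes of the cornified envelope and keratinocyte differentiation were mostly unexpressed: 22 of 38 were under 1 CPM in both DMSO libraries. Of the 16 measured, 12 were higher in CAL27 and 3 lower, with a median of 4.66. SFN, or 14-3-3 sigma, an epithelial cell cycle inhibitor, had 3400 reads in CAL27 against 2, a log2 ratio of 10.61 (95% counting interval 8.76 to 13.66). S100A2, a calcium-binding protein of basal keratinocytes, had 3982 against 151 (4.58). The protease KLK5 had 434 against 0 (at least 133-fold) and CSTA, a cysteine protease inhibitor, 312 against 0 (at least 95.7-fold). S100A16 differed by less than 2-fold, at 81.8 FPKM in CAL27 and 94.3 FPKM in the SCC15-labelled library. CSTB was lower in CAL27, with 1036 reads against 2473 (-1.37), although its ratio in the decitabine pair was -0.41.

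The mesenchymal and EMT list did not move as a unit: of 28 measured genes, 6 were higher in CAL27 and 16 lower, with a median of -1.47 (-1.54 with decitabine). VIM, or vimentin, the intermediate filament of mesenchymal cells (chr10:17228259-17237593, GRCh38), had 41 reads in CAL27 and 37300 in the SCC15-labelled library, a log2 ratio of -9.88 (95% counting interval -10.43 to -9.51). Its level was 0.547 FPKM in CAL27 and 488 FPKM in the SCC15-labelled library, and its decitabine counts were 80 and 27011. ZEB1, a repressor of CDH1, had 33 reads against 709 (log2 ratio -4.47), and S100A4 had 17 against 2189 (-6.97). COL6A3 had 0 reads in CAL27 against 1111 (at least 403-fold lower), and the homeobox factor PRRX1 had 0 against 342 (at least 124-fold lower). Other genes of the same list ran the other way. CDH2, or N-cadherin, had 917 reads in CAL27 and 0 in the SCC15-labelled library (at least 281-fold higher), and the EMT factor TWIST1 had 130 against 0 (at least 39.9-fold). COL5A1 had 798 against 1 (log2 ratio 9.52, counting interval 7.04 to 14.83). SNAI2, a further EMT factor, differed by less than 2-fold, with 481 against 299 reads (0.56). The fibroblast genes DCN and FAP had no read in any of the 4 libraries. CAL27 thus combined CDH1 with CDH2, whereas the SCC15-labelled library had VIM and ZEB1 with 4 reads of CDH1 and none of CDH2.

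Promoter windows of RefSeq (GRCh38.p14, from 250 bases before to 50 after the transcription start) were searched on both strands for the E-box CACCTG, the motif bound by the ZEB and SNAI repressors in the promoter of CDH1, and for the cAMP response element TGACGTCA, the motif bound by CREB. CDH1 had no window here. In all 35116 windows, 20.6% held the E-box and 1.85% the response element. Of the junction list, 15 genes had 22 windows, and 11 of these held the E-box, in 10 genes. CRB3, an apical polarity protein with 403 reads in CAL27 and 1 in the SCC15-labelled library, and CLDN7, a claudin with 108 and 3, had 5 matches each and are shown with the E-box (CACCTG, or CAGGTG where it lies on the other strand) in capitals. For CLDN7, the window with most matches of 2 is shown.
CRB3, chr19:6464021-6464320, plus strand: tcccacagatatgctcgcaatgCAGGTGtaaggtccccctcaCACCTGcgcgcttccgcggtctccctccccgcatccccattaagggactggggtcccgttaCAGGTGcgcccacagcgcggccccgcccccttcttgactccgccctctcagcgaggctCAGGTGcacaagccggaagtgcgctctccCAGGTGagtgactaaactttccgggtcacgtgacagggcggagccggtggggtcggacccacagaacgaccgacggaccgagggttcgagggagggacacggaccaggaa
CLDN7, chr17:7262429-7262728, minus strand: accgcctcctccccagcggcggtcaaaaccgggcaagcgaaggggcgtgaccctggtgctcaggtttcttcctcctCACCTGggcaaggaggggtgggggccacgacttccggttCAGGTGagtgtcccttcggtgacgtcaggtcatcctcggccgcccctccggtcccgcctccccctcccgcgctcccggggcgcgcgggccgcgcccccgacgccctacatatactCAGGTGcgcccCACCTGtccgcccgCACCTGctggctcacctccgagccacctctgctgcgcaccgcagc
The first base of each match lay at -228, -208, -147, -89 and -60 in CRB3 and at -174, -135, -20, -9 and 6 in CLDN7, counted from the start site as 1 with no 0. A match is a description of the letters and no evidence of binding. PCSK1, CRB3, CLDN7, L1CAM, ICAM1, CIITA and REST are named in this text after their values were seen.

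Genes of the secretory granule of neurons and endocrine cells were abundant in the SCC15-labelled library and nearly unread in CAL27. In such cells, granins pack peptide hormones, convertases cleave them, and SNARE proteins release them. Of 21 measured genes of the neuroendocrine and neuronal list, 5 were higher in CAL27 and 15 lower, with a median of -3.98 (-4.26 with decitabine), and the line fit called 5 and 14. VGF, a granin-like precursor of neuropeptides (chr7:101162509-101165593, GRCh38), is not on that list and is named for its place among the largest ratios over all genes. It had 8 reads in CAL27 and 19322 in the SCC15-labelled library (log2 ratio -11.05), or 0.204 FPKM in CAL27 and 482 FPKM there. It was therefore about as abundant per length as VIM. The granin SCG2 had 27 reads against 6031 (-7.82), and CHGA had 0 against 1040 (at least 377-fold lower). CHGB had 1 against 861, a log2 ratio of -9.87 (95% counting interval -15.18 to -7.39), and SCG3 had 1 against 2531, -11.43 with an interval of -16.73 to -8.95. The gap was there again in the decitabine pair, where CHGA had 0 reads in CAL27 and 2429 in the SCC15-labelled library. PCSK1, the prohormone convertase, had 41 against 3835 (-6.60). PTPRN, a membrane protein of dense-core granules, had 3 against 1698 (-9.26, interval -11.54 to -7.72).

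Release machinery went the same way. SNAP25, a SNARE protein, had 0 reads in CAL27 and 677 in the SCC15-labelled library (at least 245-fold lower). CPLX2, or complexin 2, a SNARE clamp, had 0 against 2327 (at least 843-fold lower), and UNC13A, which primes vesicles, had 4 against 2686 (log2 ratio -8.94). SYP, or synaptophysin, had 10 against 674 (-5.94), and the neuronal tubulin regulator STMN2 had 0 against 407 (at least 147-fold lower). L1CAM, a neural adhesion molecule, had 158 against 2315 (-3.98). Other genes of the list were at or near 0: the neuronal RNA-binding ELAVL4 had 0 reads in all 4 libraries, the neuroendocrine factor INSM1 had 4 in CAL27 and 0 in the SCC15-labelled library, and the neuronal factor NEUROD1 had 0 and 1. NCAM1 differed by less than 2-fold (76 against 111 reads, -0.65). REST, the repressor of neuronal genes in other tissues, had 607 reads in CAL27 against 1237 (-1.14, adjusted p 0.00209 by edgeR). Members higher in CAL27 included ELAVL2, with 306 reads against 1 (8.14, interval 5.65 to 13.45), and the neuropeptide GAL, with 460 against 141 (1.57).

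In the windows of 20 neuroendocrine genes, TGACGTCA was found in 3 of 41 windows (7.32%), in CHGA, PCSK1 and NRCAM. It was also found in 2 of 22 windows of the junction list (9.09%), in CLDN7 and RAB25, which were higher in CAL27, and in VGF, which is on neither list. The windows of VGF, CHGA and PCSK1 (1 of 2 windows) are shown with the element in capitals, at -79, -54 and -77.
VGF, chr7:101165520-101165819, minus strand: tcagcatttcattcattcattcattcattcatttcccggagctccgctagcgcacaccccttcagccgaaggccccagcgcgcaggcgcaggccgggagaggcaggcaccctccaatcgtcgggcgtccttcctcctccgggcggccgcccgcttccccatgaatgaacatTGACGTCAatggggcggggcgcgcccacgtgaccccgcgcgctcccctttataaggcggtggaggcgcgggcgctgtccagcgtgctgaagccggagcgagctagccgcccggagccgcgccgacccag
CHGA, chr14:92922900-92923199, plus strand: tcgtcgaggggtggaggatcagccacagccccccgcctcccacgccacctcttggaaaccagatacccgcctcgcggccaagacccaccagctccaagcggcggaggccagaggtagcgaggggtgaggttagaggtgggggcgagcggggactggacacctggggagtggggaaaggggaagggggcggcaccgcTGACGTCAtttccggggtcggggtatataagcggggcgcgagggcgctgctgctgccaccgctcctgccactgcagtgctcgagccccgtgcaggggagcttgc
PCSK1, chr5:96433199-96433498, minus strand: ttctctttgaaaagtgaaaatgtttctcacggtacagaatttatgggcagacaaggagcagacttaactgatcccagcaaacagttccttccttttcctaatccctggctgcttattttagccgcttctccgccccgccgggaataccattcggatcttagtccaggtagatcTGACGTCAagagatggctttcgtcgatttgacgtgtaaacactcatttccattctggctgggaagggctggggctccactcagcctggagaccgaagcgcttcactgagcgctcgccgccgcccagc
The 3 genes had 8, 0 and 41 reads in CAL27 and 19322, 1040 and 3835 in the SCC15-labelled library.

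Genes of positional identity were lower in CAL27. HOX genes code for homeobox factors that record position along the body axis, and later members of each cluster mark more posterior tissue. Of 31 measured HOX genes, none was at least 2-fold higher in CAL27 and 23 were lower, with a median of -2.20 (-1.88 with decitabine). HOXA9 had 22 reads in CAL27 against 1352 (log2 ratio -5.94), HOXA7 had 5 against 250 (-5.30) and HOXA5 had 82 against 823 (-3.42). Per length, the most abundant HOX genes of the SCC15-labelled library were HOXA5 at 32.5 FPKM and HOXA9 at 30.1 FPKM. HOXB9 and HOXB13 were within 2-fold, with 209 against 187 and 81 against 60 reads, but with decitabine HOXB9 was lower in CAL27, at 147 against 397 (-1.36). Of 9 measured regulators of endoderm and gut, 4 were higher and 5 lower in CAL27. FOXA1 had 222 against 5 (4.93) and its relative FOXA2 79 against 468 (-2.66). SOX9 was expressed in both, with 707 against 2101 reads (-1.69), and the intestinal factor CDX2 had 0 against 13.

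**Figure D3:**
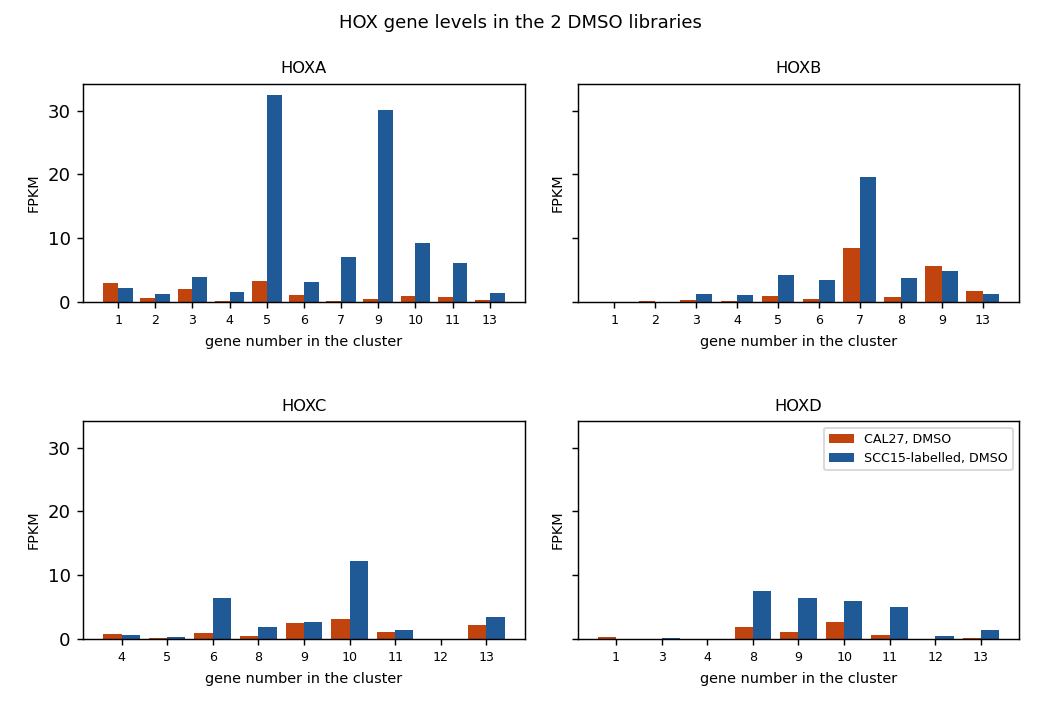
FPKM of the HOX genes of the 4 clusters in CAL27 with DMSO (left bar) and in the SCC15-labelled line with DMSO (right bar), 1 library each. HOXA5 is at 3.31 FPKM in CAL27 and 32.5 FPKM in the SCC15-labelled library, and HOXB9 at 5.58 and 4.89 FPKM.

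Receptors of the ERBB family were higher in CAL27. EGFR (chr7:55019021-55211628, GRCh38), a receptor often amplified in oral carcinoma, had 16163 reads in CAL27 and 1460 in the SCC15-labelled library, a log2 ratio of 3.35, and 88.9 FPKM against 7.86. ERBB3 had 463 against 16 reads (4.59) and ERBB2 654 against 164 (1.86). With decitabine ERBB2 was under 2-fold, at 1049 against 614 (0.84). Among the ligands, NRG1, which binds ERBB3, had 2265 reads in CAL27 against 0 (at least 695-fold), and HBEGF, which binds EGFR, had 1292 against 79 (3.88). The EGFR ligand EREG was lower in CAL27, with 298 against 1276 (-2.21), as was ERRFI1, an inhibitor of EGFR that its own signal induces, with 974 against 6427 (-2.84). Over the ERBB list, 9 of 14 measured members were higher and 4 lower. Other receptor tyrosine kinases were mixed, with 11 higher and 8 lower of 27. FGFR2 (334 against 9 reads, 4.84) and EPHA1 (239 against 0, at least 73.3-fold) were higher in CAL27, and FGFR1 (10 against 483, -5.46) and KIT (1 against 175, -7.57, interval -12.88 to -5.07) lower. MET and AXL were high in both lines, at 77.1 and 190 FPKM in CAL27 and 22.3 and 56.2 FPKM in the SCC15-labelled library.

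Genes that report and damp the MAPK pathway were lower in CAL27 in 9 of 18 cases and higher in 3, with a median of -1.06 (-1.80 with decitabine). The inhibitors that ERK signalling induces led the list: SPRY4 had 249 reads in CAL27 against 5419 (log2 ratio -4.55), SPRY2 had 146 against 1552 (-3.51), and the ERK phosphatase DUSP6 had 413 against 2208 (-2.53). ETV1, an ETS factor downstream of the pathway, had 228 against 2466 (-3.54). DUSP5 and IER3 were the reverse, with 1180 against 345 (1.65) and 3940 against 1016 (1.83). So the receptor EGFR and the feedback genes SPRY4 and DUSP6 lay on opposite sides. FOSL1 and CCND1 differed by less than 2-fold.

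BMP and TGF-beta genes were lower in CAL27 in 15 of 31 cases and higher in 6, with a median of -0.92. The direct BMP targets stood out. ID1, ID2 and ID3, inhibitors of basic helix-loop-helix factors, had 216, 12 and 199 reads in CAL27 against 2841, 659 and 2240 (log2 ratios -3.83, -5.69 and -3.60). For ID1 the gap was smaller with decitabine, at -1.23. The inhibitory SMAD6 had 16 against 1742 (-6.72) and SMAD7 34 against 551 (-4.06). INHBA, the activin subunit, was higher in CAL27, with 2403 against 295 (2.90), and so was its antagonist FST, with 914 against 185 (2.17).

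Wnt and Notch genes were balanced in number, at 10 higher and 10 lower of 34, and 6 higher and 8 lower of 21. Single ligands and receptors of the Wnt pathway differed in either direction. WNT7B had 1828 reads in CAL27 against 6 (log2 ratio 7.76), WNT7A 446 against 0 (at least 137-fold) and WNT10A 203 against 0 (at least 62.3-fold). The receptor FZD6 had 2594 against 794 (1.59). FZD8, another receptor, had 2 reads in CAL27 against 559 (-8.25, interval -11.30 to -6.39), and LGR5, a receptor for R-spondins, had 0 against 53. The Notch ligand JAG2 had 536 against 23 (4.32), whereas the Notch target HEY1 had 37 against 782 (-4.45) and the Notch-modifying MFNG 42 against 663 (-4.04). Ligands and targets did not divide by class. The ligand JAG1 was lower in CAL27 (538 against 1247, -1.33) and the ligand DLL1 higher (271 against 122, 1.02). Of the HES family, HES1 was lower (234 against 565, -1.38) and HES4 higher (196 against 23, 2.88). Of 21 measured YAP pathway genes, 9 were higher and 4 lower in CAL27. CYR61 had 11911 reads in CAL27 against 641 (4.09) and THBS1 35338 against 8354 (1.96), while CTGF, often used beside CYR61 as a YAP readout, had 210 against 838 (-2.11) but 413 against 500 with decitabine (-0.21). F3, the tissue factor that starts coagulation, had 13450 against 69 (7.45). The coactivator WWTR1, or TAZ, was lower in CAL27, with 1693 against 6435 (-2.05).

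Inflammatory genes were higher in CAL27 nearly throughout. Of 32 measured genes of interleukin 1, NF-kB and chemokines, 27 were higher and 2 lower, with a median of 3.93 (2.81 with decitabine, where 22 of 33 were higher and 4 lower). IL1A had 2160 reads against 8 (log2 ratio 7.67), and IL1B had 2082 against 1, a log2 ratio of 10.90 (95% counting interval 8.42 to 16.21). In the decitabine pair IL1B had 4084 and 87 reads, so its ratio there was 5.58. CXCL16, a membrane-bound chemokine, had 2340 against 0 (at least 718-fold), CCL2 had 3119 against 40 (6.10) and the growth factor CSF2 had 1007 against 7 (6.72). TNF had 498 against 1 (8.84, interval 6.35 to 14.15). The adhesion molecule ICAM1, an NF-kB target, had 3297 against 37 (6.29). The 2 lower genes were PTGS2, or cyclooxygenase 2, with 256 reads in CAL27 against 1302 (-2.46), and the lipopolysaccharide receptor TLR4, with 139 against 1073 (-3.05).

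Interferon and antigen presentation genes lay on the same side: 40 of 44 were higher in CAL27 and none lower, with a median of 2.90 (2.74 with decitabine), and the line fit called 40 and none. HLA-B, a class I molecule, had 11411 reads in CAL27 against 196 (log2 ratio 5.73), and HLA-C had 10967 against 804 (3.65). Reads of HLA genes depend on each line's alleles and on their near copies, so these ratios are uncertain. PSMB9, a subunit of the immunoproteasome, is a single-copy gene and had 1310 against 5 (7.48). Class II genes had reads in CAL27 and none in the other DMSO library: CD74, the invariant chain, had 3287 against 0 (at least 1008-fold) and HLA-DRA 502 against 0 (at least 154-fold). Their activator CIITA had 166 against 26 (2.48). Interferon-induced MX1 had 592 against 1 (9.09, interval 6.61 to 14.40) and OAS2 280 against 0 (at least 85.9-fold). TMEM173, which encodes STING, was more abundant in the SCC15-labelled library by under 2-fold (120 against 199 reads, -0.84).

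**Figure D4:**
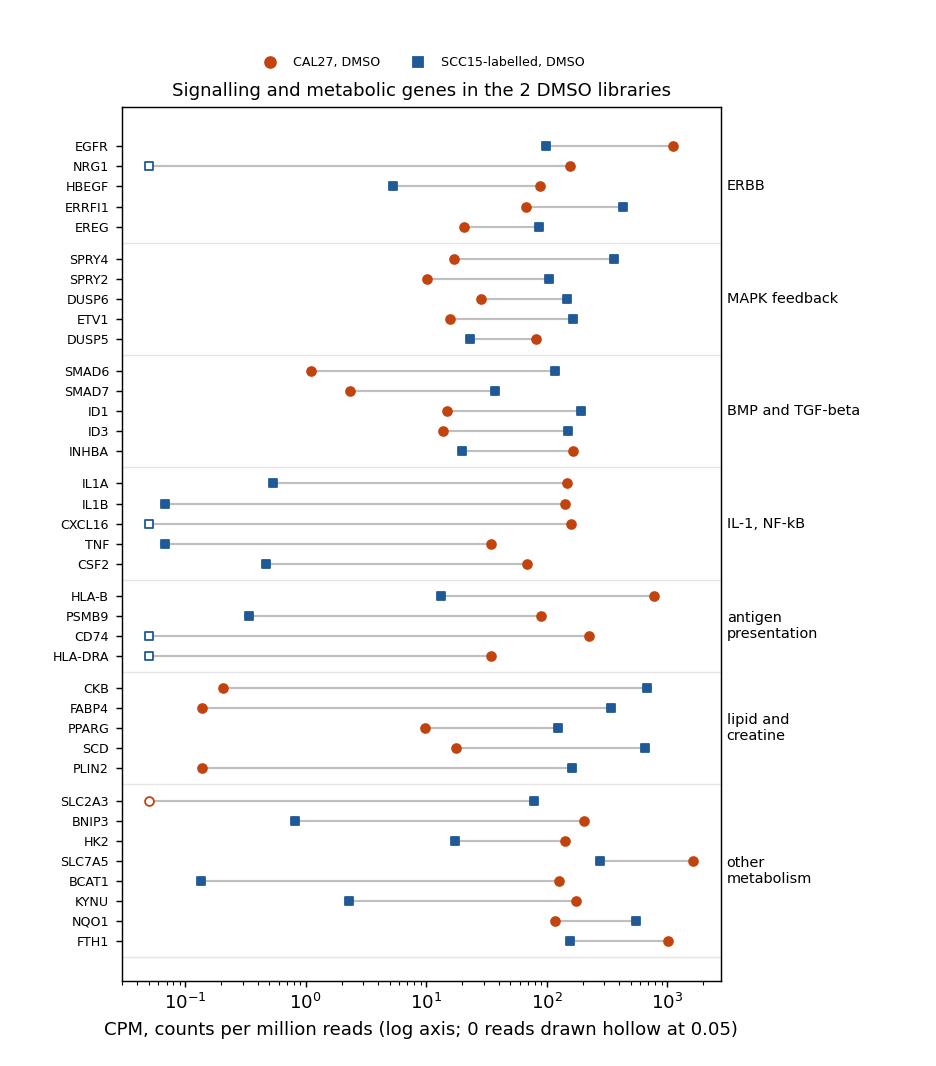
CPM on a log axis of signalling and metabolic genes in CAL27 with DMSO (circles) and in the SCC15-labelled line with DMSO (squares), 1 library each, hollow where a library had 0 reads. EGFR and the interleukin 1 and antigen presentation genes are higher in CAL27, and the feedback genes SPRY4 and DUSP6, the SMAD6 and ID genes and the lipid genes SCD, FABP4 and PLIN2 are higher in the SCC15-labelled library.

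Of 34 cell cycle regulators, 10 were higher in CAL27, 5 lower and 19 within 2-fold, against 8328 of the 14813 measured genes within 2-fold. MYC had 1601 reads in CAL27 and 35 in the SCC15-labelled library (log2 ratio 5.33), and CCND2, a D-type cyclin, had 196 against 0 (at least 60.1-fold). FAS, a death receptor, had 368 against 20 (3.97). The CDK inhibitors CDKN2A and CDKN2B, neighbours on chromosome 9, were both lower in CAL27, with 562 against 2884 (-2.48) and 116 against 674 (-2.64). CDK6, which they inhibit, was lower too, with 2515 against 5743 (-1.31).

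Glycolytic genes were near background, with 10 higher and 7 lower of 32 and a median of 0.13, and the most abundant enzymes were close: GAPDH stood at 851 FPKM in CAL27 and 1026 FPKM in the SCC15-labelled library, and ENO1 at 975 and 505 FPKM. The lines differed in single steps. The glucose transporter SLC2A3 had 0 reads in CAL27 against 1164 (at least 422-fold lower), whereas hexokinase HK2 had 2047 against 256 (log2 ratio 2.87). BNIP3, a hypoxia-induced mitophagy receptor, had 2978 against 12 (7.64), and EGLN3, an oxygen sensor, 649 against 53 (3.45). ALDOA had only 34 and 8 reads. That gene overlaps others in the annotation, and reads shared with them may be missing from its count.

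Of 37 measured genes of cholesterol and fatty acid synthesis, 3 were higher in CAL27, 14 lower and 20 within 2-fold, with a median of -0.78 (-0.60 with decitabine). Of the 14 lower genes, 7 were also at least 2-fold lower in the decitabine pair. SCD, the desaturase that makes oleate, had 255 reads in CAL27 against 9688 (log2 ratio -5.36), SREBF1, a regulator of this pathway, 499 against 1760 (-1.93) and ELOVL6 386 against 1688 (-2.24). IDI1, of the mevalonate pathway, had 404 against 2222 (-2.57), but -0.78 with decitabine. The elongase ELOVL7 was the reverse, with 604 against 21 (4.61). A separate list covered creatine, fatty acid use and mitochondrial enzymes. Of its 30 measured genes, 7 were higher in CAL27, 12 lower and 11 within 2-fold, with a median of -0.63. In the decitabine pair 4 were higher and 20 lower of 32 (median -1.40). PPARG, the fat cell regulator, had 141 against 1847 (-3.81). FABP4, a fatty acid carrier of adipocytes and a PPARG target, had 2 against 5083 (-11.43, interval -14.48 to -9.58). PLIN2, which coats lipid droplets, had 2 against 2422 (-10.36, interval -13.41 to -8.51). CKB, the brain form of creatine kinase, had 3 against 10049 (-11.83, interval -14.11 to -10.28), and its mitochondrial relative CKMT1B had 5 against 515 (-6.34), although CKMT1A and CKMT1B are near copies and may share reads. GATM, which starts creatine synthesis, ran the other way, with 149 reads in CAL27 against 0 (at least 45.7-fold higher), as did the creatine transporter SLC6A8, with 3175 against 367 (2.99).

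Amino acid genes were higher in CAL27 in 13 of 39 cases and lower in 6. BCAT1, a transaminase of branched-chain amino acids, had 1853 reads against 2 (log2 ratio 9.74, interval 7.88 to 12.78). The tryptophan enzyme KYNU had 2538 against 34 (6.03), and the transporter SLC7A5, at 349 FPKM in CAL27 and 58.2 FPKM in the SCC15-labelled library, had a log2 ratio of 2.43. SLC38A2, a transporter of neutral amino acids, was lower, with 5895 against 13099 (-1.27). NRF2 and glutathione genes were mixed, at 10 higher and 5 lower of 33. The NRF2 target NQO1 had 1709 against 8153 (-2.37) and the drug exporter ABCC2 11 against 2170 (-7.51), while the ferritin heavy chain FTH1 had 14701 against 2314 (2.55). FTL, the ferritin light chain, was the most abundant member in both, at 2046 and 3201 FPKM. Of xenobiotic genes, the dioxin receptor AHR (933 against 3567, -2.05), its repressor AHRR (35 against 758, -4.48) and its target CYP1A1 (45 against 209, -2.29) were lower in CAL27 together, while the aldehyde dehydrogenase ALDH7A1 had 1238 reads against 0 (at least 380-fold higher).

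Transcripts of the mitochondrial genome, which code for core subunits of the respiratory chain, were the list that differed most between the pairs. In the DMSO pair 1 of 12 measured genes was higher in CAL27 and none lower, with a median of -0.13, and mitochondrial reads made up 7.24% of CAL27 and 7.60% of the SCC15-labelled library. In the decitabine pair 9 of 12 were higher in CAL27 and the median was 1.49. Such reads can also come from nuclear copies.

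Of 27 integrin and matrix genes, 11 were higher and 11 lower in CAL27, with a median of -0.66. In the decitabine pair 9 were higher and 16 lower (median -1.32), and the line fit called 10 and 16. Basement membrane collagen IV was higher in CAL27, with 1004 reads of COL4A1 against 1 (log2 ratio 9.85, interval 7.37 to 15.16) and 2113 of COL4A2 against 19 (6.55). The laminin chains LAMA4 and LAMB1 were lower in CAL27, with 18 against 1641 (-6.49) and 1451 against 8462 (-2.66), opposite in direction to the laminin-332 chains. Among proteases and inhibitors, 10 were higher and 6 lower of 22. The plasminogen activators PLAU (8107 against 709, 3.39) and PLAT (767 against 49, 3.80) and the membrane metalloproteinase MMP14 (1375 against 27, 5.46) were higher in CAL27. The inhibitors SERPINE2 (567 against 17114, -5.03) and TIMP3 (199 against 8070, -5.45) were lower.

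Over all genes of at least 100 CPM in the higher library, 15 in each direction had the largest ratios. Those higher in CAL27 included EHF, KRT5, IL1B, SFN, ST14, ESRP1, CD74 and BCAT1, described above, and 6 more. MT1E, a metallothionein, had 8636 reads against 0 (at least 2648-fold), with the caution that metallothionein genes are near copies. MAGEA4, a cancer-testis antigen, had 3896 against 0 (at least 1195-fold) and 5097 against 305 with decitabine. The RNA-binding QKI had 3479 against 0 (at least 1067-fold), the small GTPase RHOD 2953 against 0 (at least 906-fold), the matrix glycoprotein EFEMP1 2792 against 0 (at least 856-fold) and the oncostatin M receptor OSMR 2757 against 0 (at least 845-fold). Lower in CAL27 were CKB, FABP4, SCG3, VGF, PLIN2, VIM, CPLX2, UNC13A and PTPRN, described above, and also 6 more. PEG10, an imprinted gene derived from a retrotransposon, had 0 reads in CAL27 against 12029 (at least 4358-fold lower). MLPH, or melanophilin, which links RAB27A vesicles to myosin, had 0 against 3866 (at least 1401-fold lower). MAGEA12, another cancer-testis antigen, had 0 against 1855 (at least 672-fold lower), the forkhead gene FOXR1 0 against 1791 (at least 649-fold lower), and SVIP, an inhibitor of protein degradation at the endoplasmic reticulum, 0 against 1674 (at least 607-fold lower). MGST1, a membrane glutathione transferase, had 3 against 3058 (-10.11, interval -12.39 to -8.57). MAGE genes are near copies of each other, so the counts of MAGEA4 and MAGEA12 are uncertain. All 30 of these genes differed by at least 2-fold in the same direction in the decitabine pair.

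**Figure D5:**
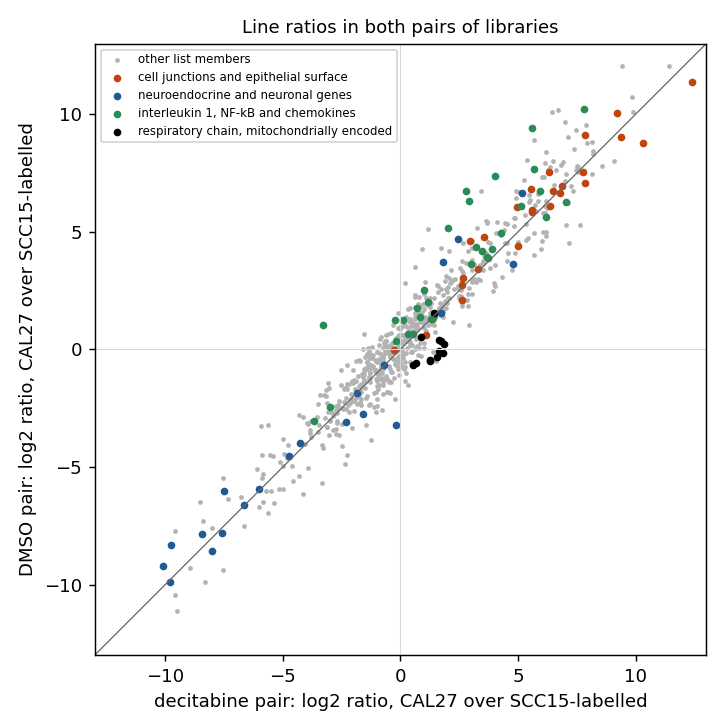
Log2 ratio of CPM, CAL27 over SCC15-labelled, in the decitabine pair (horizontal) and in the DMSO pair (vertical), prior count 2, for measured list members, with 4 lists coloured and the diagonal as a line. Junction and neuroendocrine genes lie near the diagonal, many interleukin 1 and NF-kB genes lie above it, and the mitochondrially encoded genes lie to its right (median -0.13 with DMSO and 1.49 with decitabine).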

How the data were processed

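The authors deposited, for 4 libraries of polyadenylated RNA, whole-number read counts per gene and FPKM values. HISAT2, HTSeq 0.13.5 and the build GRCh38 were used, per the submitters' processing notes. Aligner settings, annotation release and strand setting are not stated in the labels, so reads of overlapping or antisense genes may be shared or lost. All 51103 identifiers were found in GENCODE 29, which gave coordinates, and 12 gene names are stored as dates.

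Counts were scaled by TMM (edgeR 4.0.16, R 4.3.3) over the 4 libraries. Genes of at least 1 CPM in either DMSO library were measured, and a log2 ratio (CAL27 over SCC15-labelled, prior count 2) of at least 2-fold was counted as higher or lower. CPM are relative to each library's total count. FPKM values, made by the authors, were used to compare levels between genes. With 0 reads, a fold is a bound against 3 reads in that library (0.207 CPM in CAL27 and 0.202 CPM in the SCC15-labelled library, DMSO). With 1 to 3 reads, the log2 ratio without prior count is given with an exact conditional binomial 95% interval. No molecular identifiers are mentioned in the labels, so intervals and bounds cover counting error only.

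The line difference was also tested in all 4 libraries with edgeR's quasi-likelihood F test (terms for treatment and line, filterByExpr with minimum count 10 and total 15, Benjamini-Hochberg, 0.05). The fit has 1 residual degree of freedom, and its spread comes mostly from other genes (prior degrees of freedom 36.1, biological coefficient of variation 0.234). Nothing says that libraries came from separate cultures of a line. The residual degree of freedom holds the difference in decitabine response between the lines. The p-values therefore do not measure a spread between replicate cultures, and they speak of these samples only. In simulated data with 200 of 14975 genes changed 4-fold, the fit recovered 96.0% of those genes. That simulation gave all genes 1 spread and the lines the same decitabine response. It also changed far fewer genes than the fit called here. The recovery therefore does not measure how the fit performs on these data, and it says nothing of false calls. DESeq2 1.42.0 and limma 3.58.1 served as alternatives.

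The lists (864 distinct genes in 30 lists, of which some share genes) and markers were chosen with earlier results of these data known. In each list, up to 5 genes a direction with the largest ratio and at least 10 CPM in the higher library, the 2 of highest FPKM, and all markers could be named. Promoters are from RefSeq. Single values of some list members are not reported here.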

Additional observations from a re-analysis of the deposited data

How the results depend on the processing

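Each group has 1 library, so no library could be left out of the DMSO pair, and leaving one out of the fit of all 4 libraries leaves no residual degree of freedom. Beyond treatment, no pairing of cultures was possible because the labels give no replicate numbers. The fit sets the lines against each other within each treatment, and without its treatment term it called 2910 higher and 2747 lower. Scaling to total counts, DESeq2 size factors, TMM of the DMSO pair alone and other prior counts kept the counts of higher and lower genes within 1.5 times of 3223 and 3262, and so did removing the trend with GC content, an alternative chosen after seeing the data. Without a CPM minimum, 5953 were higher and 5662 lower. With at least 5 CPM, 2102 were higher. With log2(FPKM + 1), 1732 were lower. At 4-fold, 1822 were higher and 1458 lower. In these 4 settings the construction itself changes how many genes are counted or how far low values are shrunk. The fit's counts stayed within 1.5 times of 3496 and 3329, from 2618 and 2543 by DESeq2 to 4242 higher by limma on log2(FPKM + 0.1). Of 287 named genes at least 2-fold apart, 280 stayed so with total counts, 261 with log2(FPKM + 1) and 260 in the decitabine pair. Among named genes at least 2-fold apart with DMSO, CD14 alone reversed, at -0.56 in the decitabine pair against 1.51, on 16 and 4 reads with DMSO, and the cause was not tested. Depth limits genes with 0 reads to bounds, and those with 1 to 3 reads to wide intervals.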

Other observations

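The line ratio was not spread evenly over the chromosomes. Among 8034 genes of at least 10 CPM in both DMSO libraries, the median log2 ratio of CAL27 over the SCC15-labelled line was -0.11. It was lowest for the 261 genes of chromosome 4, at -0.76, where 11 were at least 2-fold higher in CAL27 and 87 lower, and it was -0.56 for that chromosome in the decitabine pair. Chromosomes 3 and 13 followed with medians of -0.49 and -0.43, and of -0.40 and 0.00 in the decitabine pair. The highest medians were 0.36 on chromosome 22, 0.29 on chromosome 20 and 0.21 on chromosome 21, and they were 0.13, 0.17 and 0.33 in the decitabine pair. Genes on a chromosome are not independent replicates, and these medians have no test. The ratio had a Spearman rho of 0.0675 with GC content across 14813 genes, with no p for the same reason.

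Transcripts annotated as long intergenic or antisense RNAs were counted apart. Of 1081 measured, 310 were at least 2-fold higher in CAL27 and 396 lower, against 2676 and 2581 of 12817 protein-coding genes. Antisense counts depend on a strand setting that is not given in the sources used here. Levels were not matched between these classes, and the counts of called genes depend on the CPM minimum. A difference between the classes was not tested.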
